A study of Mus musculus with 16 samples.

Results

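The dual-specificity MAP kinase phosphatases were examined in mouse quadriceps as 10 genes, Dusp1, Dusp3, Dusp4, Dusp5, Dusp6, Dusp7, Dusp8, Dusp10, Dusp16 and Dusp26, which were found by symbol among the 23970 symbols of the deposited expression table. The 16 libraries came from wild-type C57BL/6NTac male mice aged 16 weeks, in 4 groups of 4 biological replicates. CON-pre and HFD-pre mice were fed a control or a high-fat diet and were sampled at rest. CON-post and HFD-post mice had the same diets and were sampled 3 h after a maximal treadmill run. All 4 groups had been acclimatised to the treadmill and had been without food for the same period, so that rest and exercise were compared between different fasted mice. Values are FPKM (fragments mapped to a gene, divided by the length of its transcript and by the mapped fragments of the library), a level that already allows for gene length. Tests were made with limma on log2(FPKM + 0.5) across the 11256 genes that averaged 0.5 FPKM or more, and a gene was called changed where its p, adjusted by the Benjamini-Hochberg method over all of them, was under 0.05. Of the 10 genes, 9 passed this filter and Dusp5 did not, while Dusp4 passed only through its levels after exercise.

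MAP kinases are switched on when a kinase phosphorylates both a threonine and a tyrosine in their activation loop. The dual-specificity phosphatases remove both phosphates with a single catalytic cysteine and so switch the kinases off. Typical members also carry a docking domain that sets which MAP kinase they bind, and many of them are themselves transcribed in response to MAP kinase activity, which makes them part of a negative feedback. In contracting muscle ERK, JNK and p38 kinases are all activated, and the phosphatases differ in which of these they act on and in whether they work in the nucleus or the cytoplasm.

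The catalytic site is what the family shares, so its coding sequence is shown for each gene, as read from the GENCODE M1 transcripts on the NCBIM37 (mm9) genome. Each line gives the 24 bases that code for the signature motif around the catalytic cysteine, whose codon is in capitals.
Dusp1: catTGCcaggccggcatctcccgg
Dusp4: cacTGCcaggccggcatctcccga
Dusp5: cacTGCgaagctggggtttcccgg
Dusp6: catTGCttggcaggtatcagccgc
Dusp7: cacTGCctagcaggcatcagccgt
Dusp8: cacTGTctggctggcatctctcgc
Dusp10: cacTGCcaggccggcgtgtcccga
Dusp16: cacTGCttagctgggatctctcgc
Dusp3: catTGCcgcgagggctacagccgc
Dusp26: cacTGTgcggtgggagtgagcaga
Dusp4 differed from Dusp1 at 2 bases and at 0 of the 8 encoded residues, and Dusp10 at 4 bases and 1 residue. Dusp6, Dusp7, Dusp8 and Dusp16 differed from Dusp1 at 6 to 8 bases and at 1 residue each. Dusp5 differed at 7 bases and 2 residues. The atypical genes Dusp3 and Dusp26, which lack the docking domain, differed at 9 and 13 bases and both at 3 residues. The whole coding regions ranged from 185 codons in Dusp3 to 663 in Dusp8. In all 10 transcripts the site lay in coding sequence, for example in exon 4 of 4 in Dusp1 (chr17:26643537-26643560, minus strand), in Dusp4 (chr8:35881487-35881510, plus strand) and in Dusp10 (chr1:185898172-185898195, plus strand), and in exon 3 of 3 in Dusp7 (chr9:106276005-106276028, plus strand).

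Because several members are known as immediate early genes, the 250 bases before 1 annotated transcript start of each gene were searched on both strands for elements bound by exercise-responsive factors: the full cAMP response element TGACGTCA, its first part TGACG, the AP-1 element TGANTCA, the CArG box of serum response factor, the E-box CACGTG and the NR4A monomer element AAAGGTCA. RefSeq promoters (GRCm38.p6) were matched for 8 of the 10 genes, all except Dusp4 and Dusp26. The windows of Dusp1, Dusp5, Dusp6 and Dusp10 lay outside the annotated span of the gene (0 bases inside), while those of Dusp3, Dusp8 and Dusp16 lay wholly within it (250 bases) and that of Dusp7 in part (72 bases), so that these precede a start inside the gene. The sequences of Dusp1 and Dusp5 are shown because they held the longer elements before the gene, and that of Dusp10 because it was the gene called on the control diet. They run 5′ to 3′ towards the start and the elements found are in capitals.
Dusp1: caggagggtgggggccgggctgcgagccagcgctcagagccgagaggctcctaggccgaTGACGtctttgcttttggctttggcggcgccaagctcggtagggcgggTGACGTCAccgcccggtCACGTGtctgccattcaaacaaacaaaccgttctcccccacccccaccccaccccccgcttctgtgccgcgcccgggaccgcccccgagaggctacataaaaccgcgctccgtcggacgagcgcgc
Dusp5: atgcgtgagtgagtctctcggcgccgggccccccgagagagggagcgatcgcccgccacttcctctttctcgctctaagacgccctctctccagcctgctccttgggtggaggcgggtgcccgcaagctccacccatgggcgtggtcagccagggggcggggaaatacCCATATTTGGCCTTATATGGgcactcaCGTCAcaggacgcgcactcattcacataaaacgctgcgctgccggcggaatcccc
Dusp10: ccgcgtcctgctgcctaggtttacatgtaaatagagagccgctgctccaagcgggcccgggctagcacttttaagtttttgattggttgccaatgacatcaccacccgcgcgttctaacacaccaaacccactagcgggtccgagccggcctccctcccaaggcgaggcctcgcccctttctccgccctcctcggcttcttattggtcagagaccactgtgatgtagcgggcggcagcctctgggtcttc
The Dusp1 window (chr17:26508473-26508722, minus strand) held TGACGTCA from -143, an earlier TGACG from -191 and CACGTG from -126, counted from the start. The Dusp5 window (chr19:53528895-53529144, plus strand) held a pair of adjacent CArG boxes from -82 and -72, and TGACG on the other strand from -55. The Dusp8 window (chr7:142095285-142095534, minus strand) held TGACGTCA at -107 and again at -63, before its internal start. In Dusp1 and Dusp8 each full element also contains TGACG on both strands. The Dusp16 window held TGACG alone, at -70. The windows of Dusp10 (chr1:184034131-184034380, plus strand), Dusp3, Dusp6 and Dusp7 held none of these letters. Among 32851 RefSeq mouse promoter windows of the same length, TGACGTCA was found in 1.55%, TGACG in 17.8%, TGANTCA in 6.75%, the CArG box in 1.47%, CACGTG in 6.02% and AAAGGTCA in 1.34%. These matches are descriptions of the reference sequence, and binding was not measured.

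Dusp3 was the most abundant of the 10 transcripts in quadriceps, with a mean over the 16 libraries of 32.5 FPKM. It was followed by Dusp26 at 18.6, Dusp1 at 16.4 and Dusp10 at 14.1 FPKM. Dusp7 (6.56 FPKM), Dusp8 (6.13), Dusp16 (4.91) and Dusp6 (3.81) formed a lower tier. Dusp4 (0.637) was near the lower end of what was tested, and Dusp5 (0.299) was below it. Dusp3 exceeded Dusp26 in 16 of 16 libraries, Dusp10 exceeded Dusp7 in 16, and Dusp6 exceeded Dusp4 in 16. Dusp8 exceeded Dusp16, Dusp16 exceeded Dusp6 and Dusp4 exceeded Dusp5 in 15 of 16 libraries each. The order of Dusp26 over Dusp1 held in 13 libraries and that of Dusp1 over Dusp10 in 11, while Dusp7 exceeded Dusp8 in only 8 of 16. In each of these 3 pairs the means differed by less than the SD of either gene over the 16 libraries (2.86 FPKM for Dusp26, 3.13 for Dusp1, 4.25 for Dusp10, 1.87 for Dusp7 and 0.791 for Dusp8), and no test of these levels was made. The variation between mice of one group was smallest for Dusp16, with a pooled within-group coefficient of variation of 6.66%, and largest among the tested genes for Dusp7 at 21.2% and Dusp4 at 27.8%.

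**Figure D1:**
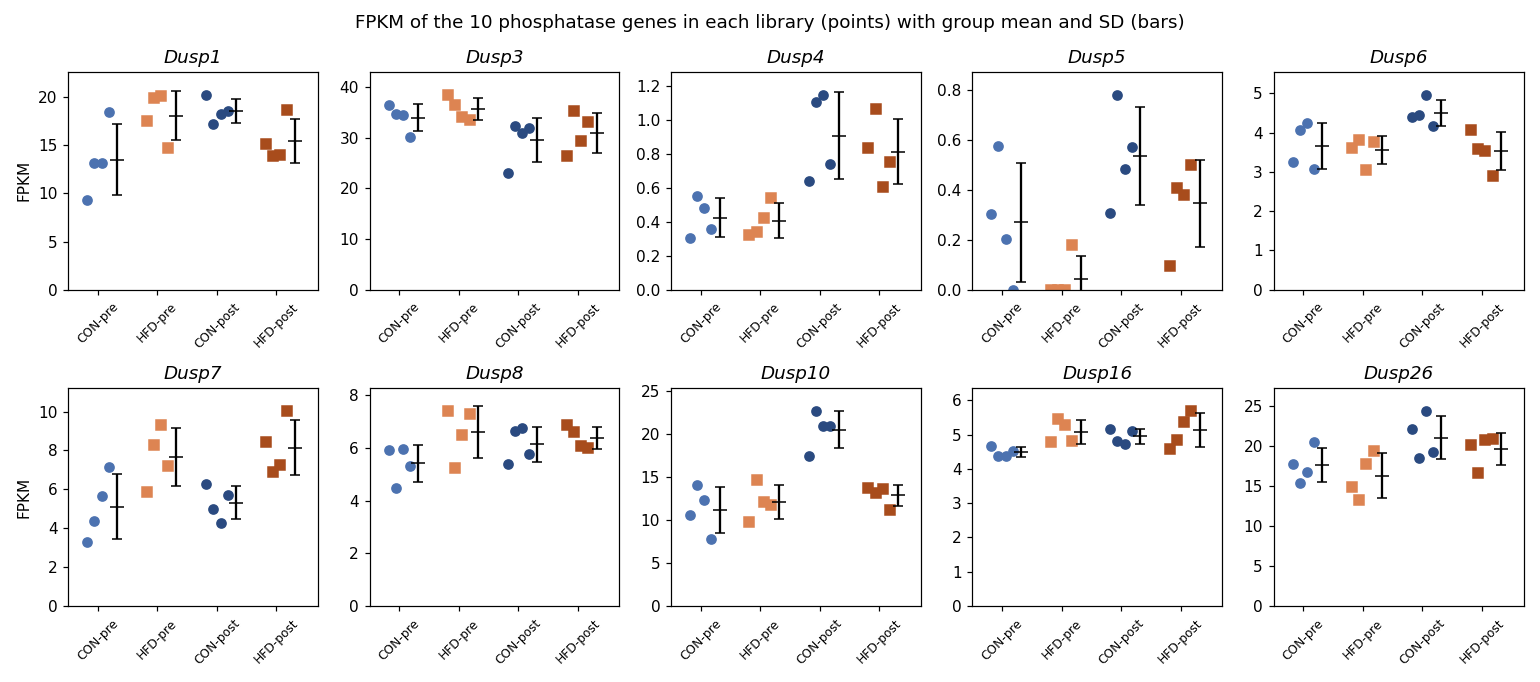
FPKM (y axis, from 0, a separate scale for each gene) of the 10 phosphatase genes in each of the 16 libraries by group (x axis), with points for single libraries in replicate order and bars for the group mean ± SD, cut at 0. The 4 CON-post libraries of Dusp10 lie between 17.4 and 22.6 FPKM, above the other 12, while both post-exercise groups of Dusp4 lie above both resting groups.

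The response to the maximal run was first compared on the control diet, where 1 of the 9 tested genes, Dusp10, passed the adjusted threshold (1.11% of all genes tested did). Dusp1, Dusp4, Dusp6 and Dusp10, 4 of the 9, had an unadjusted p under 0.05, all with higher means after exercise, against 11.1% of all genes. The groups did not overlap for 3 (Dusp4, Dusp10 and Dusp16), against 5.82% of all genes. The median log2 difference was 0.25 over the 9 genes and -0.0058 over all genes, and 8 of the 9 had a higher mean after exercise, as did 48.3% of all genes. On the high-fat diet the same comparison called 0 of the 9 (0.542% of all genes). Dusp4 and Dusp26 had an unadjusted p under 0.05 (11.7% of all genes), and the groups did not overlap for Dusp4 alone (6.81% of all genes). The median over the 9 genes was 0.011 on that diet, beside 0.035 over all genes, and 5 of the 9 had a higher mean, as did 59.3% of all genes. That median over all genes was 0.00057 with median-of-ratios scaling and -0.015 with quantile normalization. In bulk muscle, fewer cells of a type and less RNA per cell cannot be told apart, here and in every comparison that follows.

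Dusp10 encodes a phosphatase of the stress-activated kinases JNK and p38 that is found in both nucleus and cytoplasm (gene at chr1:184034381-184075636, GRCm38). In CON-pre its level was 10.6, 14.02, 12.3 and 7.73 FPKM in replicates 1 to 4, and in CON-post it was 17.4, 22.6, 20.9 and 20.9 FPKM. Every CON-post library was above every CON-pre library. In HFD-pre the level was 9.73, 14.6, 12.05 and 11.8 FPKM and in HFD-post 13.7, 13.1, 13.6 and 11.1 FPKM, and these ranges overlapped. The group means (± SD, n = 4) were 11.2 ± 2.68 in CON-pre, 20.5 ± 2.16 in CON-post, 12.03 ± 1.98 in HFD-pre and 12.9 ± 1.21 in HFD-post. Dusp10 therefore rose 1.83-fold on the log2(FPKM + 0.5) scale on the control diet (log2 difference 0.87, SE 0.15, adjusted p = 0.0060). On the high-fat diet the log2 difference was 0.10 (95% confidence interval -0.22 to 0.42, adjusted p = 0.846). Leaving out replicate 1 of HFD-pre gave 0.010, leaving out its replicate 2 gave 0.20, and leaving out replicate 4 of HFD-post gave 0.17, each uncalled.

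The difference between the 2 responses of Dusp10 was -0.77 on the log2 scale (95% confidence interval -1.22 to -0.31, unadjusted p = 0.0024). It did not pass adjustment over all genes (adjusted p = 0.9999), and 0 of the 11256 genes tested did. After exercise Dusp10 was lower in HFD-post than in CON-post without overlap, by a log2 difference of -0.65 (SE 0.15), which also missed limma's adjusted threshold (unadjusted p = 0.0006, adjusted p = 0.148). At rest the diets differed by 0.12 (adjusted p = 0.914). The CON-pre value of replicate 4, 7.73 FPKM, was the lowest of all 16 libraries, and without it the resting difference turned to -0.037, while the rise on the control diet was 0.71 and stayed called. With only CON-pre and CON-post in the fit the adjusted p of that rise was 0.0578.

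The nuclear phosphatases Dusp1, Dusp4 and Dusp5 are the classical immediate early members, induced by growth factors and stress. Dusp4, which acts on ERK, JNK and p38 (gene at chr8:34807610-34819894), was at 0.304, 0.554, 0.481 and 0.355 FPKM in CON-pre and at 0.638, 1.10, 1.14 and 0.739 FPKM in CON-post. In HFD-pre it was at 0.320, 0.342, 0.423 and 0.542 FPKM and in HFD-post at 0.831, 1.06, 0.605 and 0.752 FPKM. All 8 libraries taken after exercise were above all 8 taken at rest, at a low level in every group. The log2 difference was 0.60 on the control diet (SE 0.16, adjusted p = 0.0844) and 0.53 on the high-fat diet (adjusted p = 0.174), neither of which passed. Pooled over the diets, Dusp4 rose by 0.56 (SE 0.11, adjusted p = 0.0080), a 1.48-fold change on the log2(FPKM + 0.5) scale, which understates the change of a gene this low. With a pseudocount of 0.1 FPKM the pooled difference was 0.89. Dusp4 entered the test through its means after exercise (0.906 FPKM in CON-post and 0.813 in HFD-post). Its means at rest (0.423 in CON-pre and 0.407 in HFD-pre) were under the 0.5 FPKM of the filter. With the filter left out, Dusp4 was also called in the pooled comparison. Its responses on the 2 diets differed by -0.067 (95% confidence interval -0.53 to 0.40).

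Dusp1, a phosphatase of JNK, p38 and ERK that limits stress signalling (gene at chr17:26505591-26508472), had a different pattern. Its level was 9.33, 13.1, 13.2 and 18.4 FPKM in CON-pre and 17.5, 19.9, 20.1 and 14.7 FPKM in HFD-pre. After exercise it was 20.2, 17.2, 18.2 and 18.6 FPKM in CON-post and 15.1, 13.8, 13.95 and 18.7 FPKM in HFD-post. CON-pre held the lowest values, but its replicate 4 lay within the range of the other groups. The log2 difference with exercise was 0.48 on the control diet (SE 0.16, unadjusted p = 0.0073, adjusted p = 0.199) and -0.22 on the high-fat diet (adjusted p = 0.616). The difference between these responses was -0.70 (95% confidence interval -1.17 to -0.23, unadjusted p = 0.0059, adjusted p = 0.9999). At rest Dusp1 was higher in HFD-pre by 0.43 (unadjusted p = 0.0135, adjusted p = 0.423), and after exercise it was lower in HFD-post (log2 difference -0.27, adjusted p = 0.907). Without CON-pre replicate 4 the response on the control diet was 0.64 and passed the threshold (adjusted p = 0.0275). Without CON-pre replicate 1 it was 0.32 (adjusted p = 0.524), and the diet difference at rest was 0.28 (adjusted p = 0.786), so the values of Dusp1 depended on these libraries.

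Dusp5 is a nuclear phosphatase restricted to ERK. It was listed at 0.303, 0.575, 0.202 and 0 FPKM in CON-pre and at 0.309, 0.780, 0.483 and 0.572 FPKM in CON-post. In HFD-pre 3 libraries were listed at 0 and the other at 0.178 FPKM, while HFD-post held 0.0945, 0.409, 0.380 and 0.4996 FPKM. An exact 0 in this table can be a failed estimate: 16 of the 5270 genes that averaged 5 FPKM or more had a 0 in one library or another. Two-sided exact permutation tests gave p = 0.143 for exercise on the control diet, 0.0571 for exercise on the high-fat diet, 0.143 between the diets at rest and 0.229 after exercise, where 4 libraries against 4 allow no p below 0.0286. When the filter on low values was left out, the pooled exercise difference was 0.54 (adjusted p = 0.0998).

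The cytoplasmic ERK phosphatases are Dusp6 and Dusp7. Dusp7 (gene at chr9:106368560-106375724) had the largest diet difference of the 9 when the exercise states were pooled. It was at 3.28, 4.37, 5.68 and 7.15 FPKM in CON-pre and at 5.87, 8.27, 9.33 and 7.21 FPKM in HFD-pre, with overlap. After exercise it was at 6.30, 4.99, 4.29 and 5.71 FPKM in CON-post and at 8.43, 6.87, 7.25 and 10.01 FPKM in HFD-post, without overlap. The log2 difference was 0.57 both at rest (SE 0.19, adjusted p = 0.377) and after exercise (adjusted p = 0.49997). Pooled over exercise states it was 0.57 (SE 0.14, unadjusted p = 0.0007), which missed the adjusted threshold (adjusted p = 0.0640). The pooled difference passed without CON-pre replicate 4 (0.65, adjusted p = 0.0181) and without HFD-pre replicate 1 (0.63, adjusted p = 0.0499). The exercise difference of Dusp7 was 0.089 on the control and 0.085 on the high-fat diet (adjusted p = 0.911 and 0.908). Over the fits that left out 1 library it ran from -0.085 (without CON-pre replicate 1) to 0.25 (without CON-pre replicate 4) on the control diet, and from -0.028 (without HFD-pre replicate 1) to 0.18 (without HFD-pre replicate 3) on the high-fat diet, uncalled in each.

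Dusp6, a transcriptional target of ERK in many tissues, was at 3.24, 4.06, 4.24 and 3.07 FPKM in CON-pre and at 4.39, 4.44, 4.95 and 4.17 FPKM in CON-post. It was at 3.61, 3.82, 3.04 and 3.76 FPKM in HFD-pre and at 4.08, 3.58, 3.54 and 2.90 FPKM in HFD-post. All CON-post libraries were above all HFD-post libraries, and the log2 difference between them was -0.32 (unadjusted p = 0.0126, adjusted p = 0.540). The difference with exercise was 0.27 on the control diet (unadjusted p = 0.0274, adjusted p = 0.367) and -0.015 on the high-fat diet (adjusted p = 0.974). Over the fits that left out 1 library, the difference on the high-fat diet ran from -0.080 to 0.063, uncalled in each.

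The other phosphatases directed at JNK and p38, Dusp8 and Dusp16, were called in none of the 7 contrasts. Dusp16, which shuttles between nucleus and cytoplasm and prefers JNK, ranged from 4.36 to 5.68 FPKM over the 16 libraries. It was at 4.66, 4.37, 4.36 and 4.53 FPKM in CON-pre, below every library of HFD-pre (from 4.77 FPKM) and of CON-post (from 4.73 FPKM). These non-overlapping differences were 0.16 between the diets at rest (adjusted p = 0.606) and 0.13 with exercise (adjusted p = 0.563). Dusp8 ranged from 4.46 to 7.38 FPKM. Its group means were 5.41 ± 0.699 in CON-pre, 6.59 ± 0.988 in HFD-pre, 6.13 ± 0.666 in CON-post and 6.38 ± 0.413 in HFD-post (SD, n = 4). The diet difference of Dusp8 at rest was 0.26 (unadjusted p = 0.0356, adjusted p = 0.551), and its exercise differences were 0.17 and -0.035 on the control and high-fat diet, the first being 0.086 without CON-pre replicate 2.

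The atypical members Dusp3, which acts on ERK and JNK, and Dusp26 had opposite signs after exercise, and neither passed. Dusp3 was at 33.9 ± 2.65 FPKM in CON-pre and 29.5 ± 4.33 in CON-post, and at 35.6 ± 2.22 in HFD-pre and 30.96 ± 3.94 in HFD-post (SD, n = 4). The log2 difference with exercise was -0.21 on each diet, and the pooled difference had an adjusted p of 0.160. On the control diet it was -0.094 without CON-post replicate 1, and on the high-fat diet -0.13 without HFD-post replicate 1. With quantile normalization the pooled difference was -0.26 and passed (adjusted p = 0.0405). The lowest Dusp3 value of all, 23.1 FPKM, was in CON-post replicate 1. Dusp26 was at 17.6 ± 2.13 FPKM in CON-pre, 21.00 ± 2.70 in CON-post, 16.3 ± 2.77 in HFD-pre and 19.6 ± 1.98 in HFD-post. Its pooled exercise difference was 0.26 (unadjusted p = 0.0092, adjusted p = 0.117), with 0.25 on the control and 0.27 on the high-fat diet (0.18 without HFD-pre replicate 2).

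**Figure D2:**
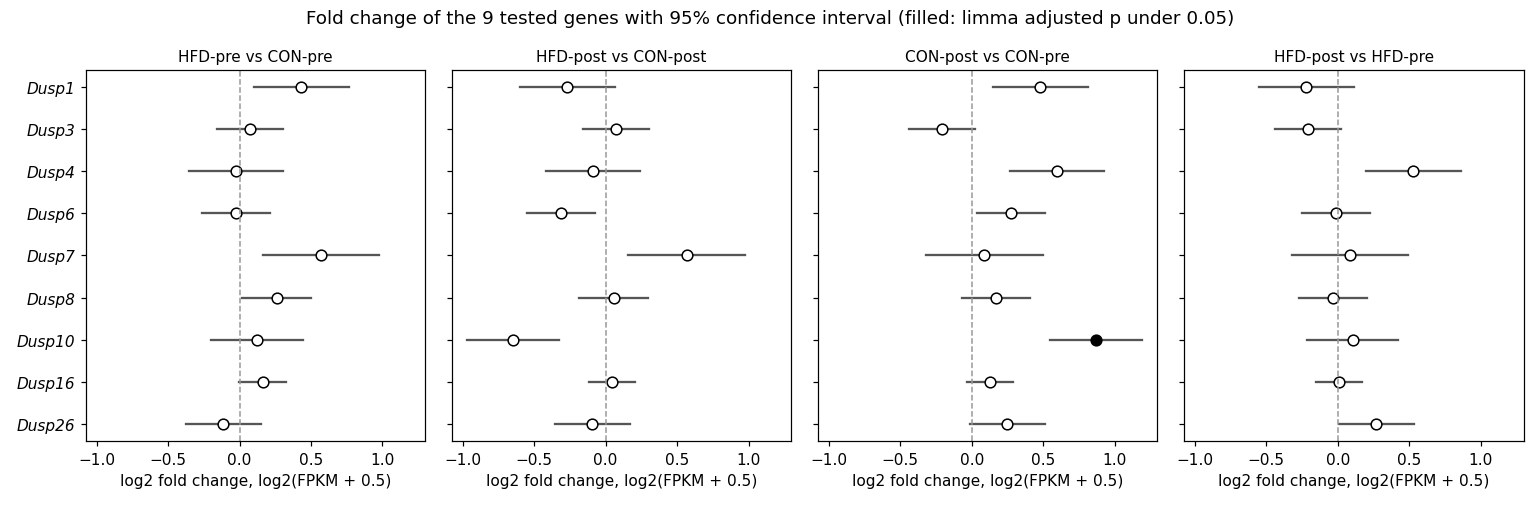
Log2 fold change on log2(FPKM + 0.5) (x axis) of the 9 tested phosphatase genes (y axis) in the 4 comparisons between groups, with lines for the 95% confidence interval and filled points for a limma adjusted p under 0.05. The single filled point is Dusp10 in CON-post against CON-pre at 0.87, and the same gene is at 0.10 in HFD-post against HFD-pre.

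The remaining comparisons across the family called few members. Pooled over the diets, exercise called 2 of the 9, Dusp10 (0.49, adjusted p = 0.0171) and Dusp4, against 3.86% of all genes. Dusp4 was among the 9 only through its levels after exercise. An unadjusted p under 0.05 was found for 4 (Dusp3, Dusp4, Dusp10 and Dusp26), against 18.5%. At rest the diets gave 0 calls among the 9 (0.346% of all genes), 3 with an unadjusted p under 0.05 (Dusp1, Dusp7 and Dusp8, all higher in HFD-pre, against 8.25%) and 1 without overlap (Dusp16, against 5.62%). After exercise the diets gave 0 calls (0.151% of all genes), 3 with an unadjusted p under 0.05 (Dusp6, Dusp7 and Dusp10, against 6.29%) and the same 3 without overlap (3.16%). Pooled over exercise states, diet gave 0 calls (0.959% of all genes) and 3 at an unadjusted p under 0.05 (Dusp6, Dusp7 and Dusp10, against 10.4%). The interaction of diet and exercise gave 0 calls (0.0% of all genes) and 2 at an unadjusted p under 0.05 (Dusp1 and Dusp10, against 3.16%). The median interaction over the 9 genes was -0.12, with 2 of the 9 above 0, as were 60.3% of all genes. Over all genes the median was 0.039, and it was -0.0025 with median-of-ratios scaling and -0.00089 with quantile normalization, so that its sign depended on the scaling. The 2 members above 0, Dusp3 and Dusp26, were at -0.047 and -0.027 with median-of-ratios scaling.

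The MAP kinases that these enzymes act on were measured in the same libraries. Of the 13 MAP kinase genes listed 9 passed the filter, and 0 were called in any comparison, where 0.0 to 3.86% of all genes were. At an unadjusted p under 0.05 there were also 0, where 3.16 to 18.5% of all genes were found. Of the p38 genes, Mapk12, the isoform enriched in muscle, was at 49.9 ± 3.83 FPKM in CON-pre and 50.002 ± 1.87 in CON-post, and Mapk14, which is expressed in most tissues, at 39.4 ± 0.677 and 41.2 ± 5.15 FPKM. Mapk8, a JNK gene, was at 4.91 ± 0.722 and 4.91 ± 0.306 FPKM in the same groups (SD, n = 4). Among the kinases above them, Map3k8, an activator of the ERK cascade, rose on the control diet from 0.581 ± 0.224 to 2.39 ± 1.63 FPKM (log2 difference 1.27, adjusted p = 0.0397), 1 of 15 tested genes of its tier, where 1.11% of all genes were called. Map3k8 had a difference of 0.85 on the high-fat diet (adjusted p = 0.255), and pooled over diets Map3k8 (1.06, adjusted p = 0.0068) and Map3k14 (0.45, adjusted p = 0.0232) were both called, where 3.86% of all genes were. Of 7 MAP kinase kinases, Map2k3, an activator of p38, was called in the pooled comparison alone (0.33, adjusted p = 0.0252), where 3.86% of all genes were. Of the 10 tested kinases that MAP kinases activate, Mknk2, which phosphorylates a translation initiation factor, rose on the high-fat diet (0.59, adjusted p = 0.0402, where 0.542% of all genes were called). Mknk2 also rose in the pooled comparison (0.56, adjusted p = 0.0013, where 3.86% of all genes were called), and its difference on the control diet was 0.53 (adjusted p = 0.0509).

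Other gene lists around the same kinases were counted in the same way. The Sprouty and Spred inhibitors of ERK signalling had 8 tested genes, the scaffolds 8 and the tyrosine and serine phosphatases of MAP kinases 3. Limma called 0 of them in any comparison, where 0.0 to 3.86% of all genes were called. At an unadjusted p under 0.05 the inhibitors had 0 in every comparison (3.16 to 18.5% of all genes). The scaffolds had at most 3 of 8, for exercise pooled over diets (18.5% of all genes), and these phosphatases at most 2 of 3, for exercise on the control diet (11.1%). Dusp2 and Dusp9, the remaining typical phosphatases, did not pass the filter. A further 11 tested genes are classed with the dual-specificity phosphatases outside the family, and their activity and any action on MAP kinases were not measured. Among these 11, Dusp27 rose on the control diet (log2 difference 0.53, adjusted p = 0.0129) from 12.8 ± 0.981 to 18.7 ± 1.68 FPKM, where 1.11% of all genes were called. Dusp27 was also called for exercise pooled over diets (0.31, adjusted p = 0.0275), where 3.86% of all genes were. On the high-fat diet the difference of Dusp27 was 0.085 (adjusted p = 0.799), and that between its responses was -0.44 (adjusted p = 0.9999).

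The early targets of ERK signalling, 18 of them tested, were the list with the most calls. On the control diet 6 rose and 0 fell (1.11% of all genes were called): Atf3, Egr1, Fos, Jun, Mcl1 and Phlda1. On the high-fat diet 1 rose, Atf3 (0.542% of all genes were called), and pooled over diets 7 rose, Myc being the addition (0.80, adjusted p = 0.0093), where 3.86% of all genes were called. At an unadjusted p under 0.05 there were 9 of the 18 on the control diet (11.1% of all genes) and 7 on the high-fat diet (11.7%). Atf3, a stress-induced transcription factor, went from 4.17 ± 1.48 to 39.5 ± 14.9 FPKM on the control diet (log2 difference 3.08) and from 5.69 ± 2.62 to 29.3 ± 12.8 FPKM on the high-fat diet (2.24, adjusted p = 0.0056). Fos, a subunit of AP-1, had differences of 1.79 (adjusted p = 0.0090) and 0.36 (adjusted p = 0.722), and Jun, its partner, of 1.27 (adjusted p = 0.0078) and 0.95 (adjusted p = 0.0988). Egr1, a zinc-finger transcription factor, had differences of 1.51 (adjusted p = 0.0455) and 1.26 (adjusted p = 0.143). Over all 111 listed genes of the pathway outside the family that were in the table, 89 were tested. On the control diet 8 rose and 0 fell, on the high-fat diet 2 rose and 0 fell, and pooled over the diets 12 rose and 0 fell (1.11, 0.542 and 3.86% of all genes were called). At an unadjusted p under 0.05 there were 21, 18 and 25 of the 89, beside 11.1, 11.7 and 18.5% of all genes. The median log2 difference of the 89 was 0.048 on the control and 0.076 on the high-fat diet. Between the diets 0 were called at rest, after exercise or pooled, with 5, 4 and 6 of the 89 at an unadjusted p under 0.05, beside 8.25, 6.29 and 10.4% of all genes. The interaction was called for 0 of the 89, with 4 at an unadjusted p under 0.05 (3.16% of all genes), so that no difference in response between the diets was shown for any of them.

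**Figure D3:**
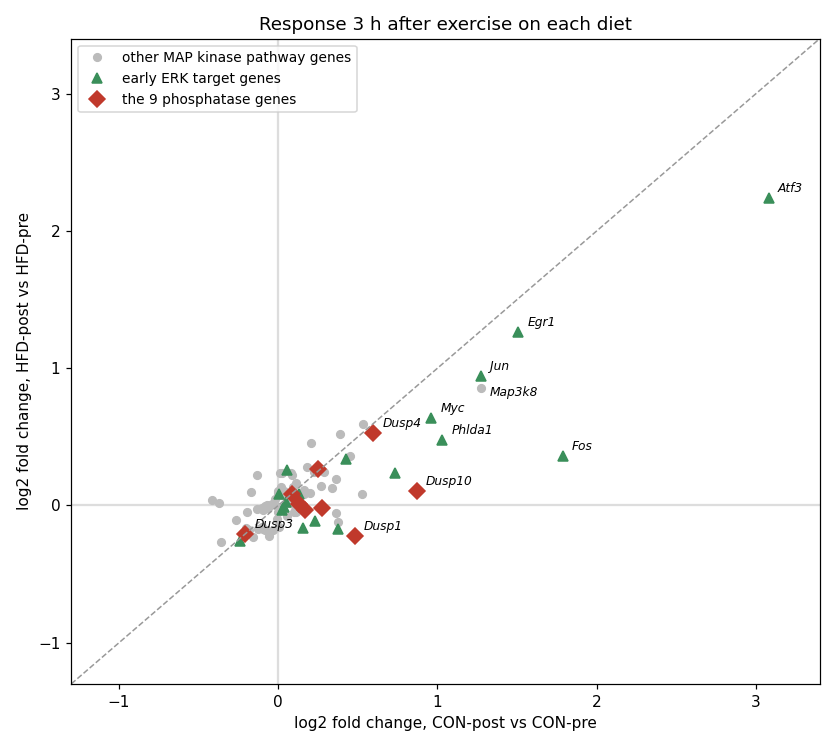
Log2 fold change 3 h after exercise on the control diet (x axis, CON-post against CON-pre) and on the high-fat diet (y axis, HFD-post against HFD-pre) for the 9 tested phosphatase genes (diamonds), 18 early ERK target genes (triangles) and the other MAP kinase pathway genes (circles), with a dashed line where both are equal. Dusp10 (0.87 and 0.10) and Dusp1 (0.48 and -0.22) lie below the line and Dusp4 (0.60 and 0.53) close to it.

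The genes whose levels were most alike to those of the 3 members with the lowest moderated F-test p (Dusp10, Dusp4 and Dusp7) were sought over the 16 libraries, which share the 4 groups. For Dusp10 they were Ern1, a sensor of endoplasmic reticulum stress (Pearson r = 0.807, Spearman rho = 0.732), Tmem246 (0.783 and 0.718) and Lpin1, a phosphatidate phosphatase (0.774 and 0.724). For Dusp4 they were Atf3 (0.900 and 0.918), Nfat5, the osmotic stress factor (0.896 and 0.903), and Otud1, a deubiquitinase (0.881 and 0.894). For Dusp7 they were Adamtsl4, an extracellular matrix protein (0.906 and 0.853), Mn1, a transcriptional coregulator (0.869 and 0.835), and Slc27a1, a fatty acid transporter (0.845 and 0.809). Slc27a1 was at 15.3 ± 2.98 FPKM in CON-pre, 20.6 ± 2.08 in HFD-pre, 19.3 ± 1.97 in CON-post and 25.3 ± 1.05 in HFD-post (SD, n = 4).

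The libraries were checked for other cell types and for fibre type. All 8 skeletal muscle markers were tested, and 0 were called in any comparison. Their summed level was 77557 to 85624 FPKM in CON-pre, 67758 to 74271 in HFD-pre, 68069 to 78865 in CON-post and 59295 to 72911 in HFD-post. CON-pre and HFD-pre did not overlap in this sum, and 1 of the 8 markers was higher in HFD-pre, as were 39.7% of all genes. After exercise 1 of the 8 was higher on the control diet (48.3% of all genes) and 1 on the high-fat diet (59.3%), with overlap in the sum in both comparisons. In HFD-post 0 of the 8 were higher than in CON-post (51.2% of all genes). The part of these shifts in the diet and exercise differences of the phosphatase genes, that of Dusp10 included, was not tested. The 6 slow-fibre markers were not called in any comparison. Of the 6, 0 were higher on the high-fat diet at rest, after exercise or pooled over both (39.7, 51.2 and 43.4% of all genes). With exercise, 6 of these markers were higher in HFD-post than in HFD-pre (59.3% of all genes) and 3 in CON-post than in CON-pre (48.3%). Their sum varied widely between mice of one group, from 179 to 638 FPKM in CON-pre, 162 to 463 in HFD-pre, 156 to 633 in CON-post and 161 to 670 in HFD-post. In each group except HFD-pre, where it was the second lowest at 34.1 FPKM, the library with the most slow-fibre signal had the lowest Dusp3: 30.2 FPKM in CON-pre replicate 4, 23.1 in CON-post replicate 1 and 26.3 in HFD-post replicate 1. The first 2 of these also had the lowest Dusp10 and the highest Dusp7 of their groups. HFD-post replicate 1, in contrast, had the highest Dusp10 of its group (13.7 FPKM) and the second highest Dusp7 (8.43 FPKM). HFD-pre replicate 3, the library richest in slow-fibre signal in its group, had the second highest Dusp10 (12.05 FPKM) and the highest Dusp7 (9.33 FPKM). Dusp1 was highest in the library with the most slow-fibre signal in CON-pre (18.4 FPKM), HFD-pre (20.1) and CON-post (20.2) and second highest in HFD-post (15.1). In CON-pre the levels of both Dusp1 and Dusp7 followed the order of the slow-fibre sum, which was 179, 416, 515 and 638 FPKM in replicates 1 to 4. With the slow-fibre level as a covariate, added after the data were seen, Dusp10 on the control diet was 0.87 (adjusted p = 0.00759), Dusp4 pooled over diets was 0.57 (adjusted p = 0.00996), and the pooled diet difference of Dusp7 was 0.66 and passed (adjusted p = 0.0143). Over all genes this covariate gave 188 calls in place of 108 for the pooled diet effect, so that the gain was not particular to Dusp7. Dusp3 pooled over diets was then -0.19 (adjusted p = 0.0937). Dusp1 was then 0.48 for exercise on the control diet (adjusted p = 0.153), 0.51 for diet at rest (adjusted p = 0.193) and -0.73 for the interaction (adjusted p = 0.9998).

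Of the 7 adipocyte markers, Cfd and Lep were called in the diet comparisons, and the summed level was 372 to 476 FPKM in CON-pre, 321 to 415 in HFD-pre, 375 to 563 in CON-post and 339 to 659 in HFD-post. On the high-fat diet 4 of the 7 were higher at rest (39.7% of all genes) and 5 after exercise (51.2%). With exercise 6 were higher on the control diet (48.3% of all genes) and 7 on the high-fat diet (59.3%). Of the 6 endothelial markers, Pecam1 was called in HFD-post against HFD-pre and in the pooled exercise comparison, and the sum was 45.1 to 55.8 FPKM in CON-pre, 49.3 to 60.1 in HFD-pre, 52.4 to 67.1 in CON-post and 55.5 to 61.7 in HFD-post. With exercise 6 of the 6 were higher on the control diet (48.3% of all genes) and 3 on the high-fat diet (59.3%). On the high-fat diet 6 were higher at rest (39.7% of all genes) and 3 after exercise (51.2%). The macrophage (5 in the table), blood (6), Schwann cell (6) and fibroblast (5) markers had 0 calls, and no marker was at 0 in all libraries. The part of these cells in the differences of the phosphatase genes was not tested. FPKM carry no depth. Relative depth, estimated from genes of low value and set to 1 in CON-pre replicate 1, ran from 0.702 to 1.125, and the libraries' total FPKM from 283575 to 329282.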

How the data were processed

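RNA was sequenced from quadriceps of 16 mice. The authors prepared stranded mRNA libraries (TruSeq, HiSeq2500), aligned the reads with TopHat to mm9 and deposited FPKM estimated with Cufflinks, which allow for transcript length and for library size. FPKM are not counts, so no count model was used, and the precision of a single value is not known. The table held 24487 entries: 27 with date-like names (0.0771% of all FPKM) were dropped, and 260 symbols with several entries, 0 of them among the 10 genes, were added up. No column of sample values was left out.

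Groups came from the sample titles. One limma fit (limma 3.58.1, R 4.3.3) with a mean-variance trend on log2(FPKM + 0.5) held all 16 libraries without covariates and tested 7 contrasts over the 11256 genes that averaged 0.5 FPKM or more. The pooled exercise and diet effects are means of the contrasts on each diet or in each exercise state. Dusp5, below the filter, was tested with exact permutation tests. The code was tested on simulated data. Tables, motif searches and figures used matplotlib 3.10.9, pandas 2.3.3, scipy 1.17.1 and numpy 2.4.6 under Python 3.11.15. The 10 genes and all lists were chosen with earlier results of these data known. Named besides the 10 genes are pathway genes called in any contrast, at most the 5 lowest p per list and contrast, and the 3 genes most correlated with each of the 3 members with the lowest F-test p. Myc, Mapk8, Mapk12, Mapk14, Dusp2, Dusp9, Cfd, Lep and Pecam1 fall outside that rule and were named after their values were seen. Alternatives were pseudocounts of 0.1 and 1, quantile or median-of-ratios scaling, no filter, a replicate block, fits of just the pair of groups in question and fits that omit a library. Coordinates are NCBIM37 for the signature codons and RefSeq GRCm38.p6 for genes and promoters, since the table holds no coordinates.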

Additional observations from a re-analysis of the deposited data

Results flagged for a closer look

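The exercise response of Dusp10 and that of Dusp1 differed between the diets at an unadjusted p under 0.05. The difference, high-fat minus control, was -0.77 on the log2 scale for Dusp10 (unadjusted p = 0.0024) and -0.70 for Dusp1 (unadjusted p = 0.0059), and neither passed adjustment over all 11256 genes (limma adjusted p = 0.9999). Over the 16 fits that each omitted a library, the difference lay between -0.88 and -0.61 for Dusp10 and between -0.86 and -0.54 for Dusp1. The groups of 4 libraries of each gene, 40 in all, were examined for a single library far from the other 3 by Dixon's criterion, which flags some groups by chance. For Dusp3 it was CON-post replicate 1 (23.1 FPKM, the lowest) and for Dusp26 HFD-post replicate 2 (16.7 FPKM, the lowest). For Dusp5 it was HFD-pre replicate 4 (0.178 FPKM). The other 3 were listed at 0 there, so any value above 0 would have been flagged.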

How the results depend on the processing

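Among the 9 tested genes and 7 contrasts (63 values), 24 alternatives gave 1485 values, of which 1478 kept their side of the threshold and 62 of these changed sign by less than 1 SE while uncalled. The number of members called on the control diet after exercise, 1 in the main analysis, was 2 with quantile normalization (Dusp10 and Dusp4), 0 with only the 2 groups compared (Dusp10, adjusted p = 0.0578), and 1 to 2 over the fits that omit a single library (2 without CON-pre replicate 4, Dusp1 and Dusp10). For the diet effect pooled over exercise states, 0 members in the main analysis, it was 1 with the slow-fibre marker level as a covariate (Dusp7), an alternative chosen after seeing the data, and 0 to 1 over the fits that omit a library (1, Dusp7, when CON-pre replicate 4 was omitted and when HFD-pre replicate 1 was). Without CON-post replicate 1, Dusp3 in HFD-post against CON-post turned from 0.071 to -0.041 (0.15 at the other end of these fits), and without CON-pre replicate 4, Dusp10 in HFD-pre against CON-pre turned from 0.12 to -0.037 (0.24 at the other end). Fewer samples entered these fits, and the cause was otherwise not tested.

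Replicate numbers are numbers in titles: the 24 same-numbered pairs of libraries had correlations of their deviations from group means of -0.22 to 0.213, with 5 over 0.1, so they were not treated as pairs. With the replicate block, 1 member was called on the control diet, 2 in the pooled exercise comparison and 0 in the other 5, as without it. Over all genes, the 2-group fits called 72 genes in place of 125 for CON-post against CON-pre and 2 in place of 17 for HFD-post against CON-post, and the slow-fibre covariate 188 in place of 108 for the pooled diet effect, 62 in place of 39 for diet at rest and 28 in place of 17 for diet after exercise. Leaving out the filter on low values called 37 in place of 61 for HFD-post against HFD-pre. With FPKM the counting error is not known, and it bears most on Dusp4 and Dusp5.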
